A study of Mus musculus with 13 samples.

Results

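Beta cells release insulin when glucose enters the cell, is metabolized and closes a potassium channel. The 9 genes examined here encode the steps around that event in mouse islets: glucose entry (Slc2a2, the GLUT2 transporter), the return of glucose-6-phosphate to glucose (G6pc2, a glucose-6-phosphatase of islets), the two-part ATP-sensitive potassium channel (Abcc8, the sulfonylurea receptor SUR1, and Kcnj11, its pore Kir6.2), the incretin receptor that raises cyclic AMP and strengthens release (Glp1r), the convertases that cut prohormones (Pcsk1 and Pcsk2), the zinc transporter of the insulin granule (Slc30a8, ZnT8) and urocortin 3, a peptide released with insulin that is used as a marker of mature beta cells (Ucn3). They were chosen by name for these roles, and 9 of 9 were found by Entrez identifier among the 23366 genes of the table.

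Several of these genes are not particular to beta cells. GLUT2 also carries glucose in liver, gut and kidney, Pcsk2 cuts proglucagon in alpha cells, and Slc30a8 and the channel are found in alpha cells too. Islets make up a small share of the pancreas, whose bulk is acinar tissue, so in RNA from whole pancreas the level of an islet gene reflects the amount of islet tissue in the sample as well as its level per cell. In these bulk samples, fewer beta cells and less RNA per beta cell cannot be told apart.

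RNA-seq was performed on total RNA of pancreas from 13 mice of the i4F-B strain. These are reprogrammable mice, in which doxycycline switches on the 4 reprogramming factors OCT4, SOX2, KLF4 and MYC (OSKM) from a cassette inserted in the Pparg gene, and controls carried that cassette too. The groups were untreated young mice of 13 weeks (n = 4), untreated old mice of 55 weeks (n = 5) and old-OSKM mice (n = 4), which received doxycycline for 7 days from 55 weeks of age, recovered for 2 weeks and were 58 weeks old by the labels. The study's methods add sucrose to the doxycycline water and do not state whether untreated mice received it. Both control groups went without doxycycline. The drug, its sucrose water, the OSKM factors and the 3 weeks of age between old and old-OSKM mice therefore cannot be told apart. The study describes the cassette as broadly active in acinar cells but not in most endocrine cells of the pancreas. That description rests on SOX2 staining in a young mouse shortly after an injection of doxycycline, not on the mice sequenced here.

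Values are log2 RPKM, that is, read density corrected for transcript length and library size, on a log2 scale and quantile normalized by the authors. RPKM is per length, so levels of different genes can be set side by side. The study's methods state a single read yield per sample, and read totals by library were not used here, so the precision of a single value cannot be given. A gene was called when its fold change exceeded 1.5 with a raw p under 0.01 in limma, the definition the study used, and adjusted p-values are Benjamini-Hochberg values over all 23366 genes.

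The labelled tissue was checked against its markers. The summed level of 12 acinar markers lay between 13.57 and 13.64 (log2 of summed RPKM) in all 13 mice. Quantile normalization fixes the values of the top ranks, and 3 of the 12 (Amy2a5, Cela2a and Ctrb1, 48.2% of the sum) had the same value in every mouse to within 0.001, so that sum identifies the tissue but cannot show whether its acinar share varied. On the endocrine side, the insulin gene Ins2 lay between 5.50 and 8.05 log2 RPKM. A few libraries stood apart in what other tissue they held. Young mouse 3 had a summed level of liver, gut and kidney markers of 6.15, against 2.28 to 3.13 in the other 12 mice, with Alb (albumin) at 5.36 log2 RPKM. Old-OSKM mouse 1 had the highest summed level of 7 B and T cell markers, 2.90 against -0.18 to 1.52 elsewhere. Old-OSKM mouse 4 had the highest summed levels of endothelial, fibroblast and adipocyte markers. These 3 mice also had the lowest median rank correlations with the other libraries, at 0.960 to 0.964, against 0.973 to 0.978 for the rest. They include the lowest and the highest islet values of the series, and the results are given with and without them where it matters.

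On the mm10 build, Slc2a2 lies at chr3:28697903-28728361, G6pc2 at chr2:69211073-69227993, Pcsk2 at chr2:143546133-143816284, Pcsk1 at chr13:75089420-75134861, Slc30a8 at chr15:52295553-52335798 and Glp1r at chr17:30901867-30936510, all on the plus strand. Ucn3 lies at chr13:3940688-3945349 on the minus strand. Kcnj11 (chr7:46097123-46100952) and Abcc8 (chr7:46104523-46180039) are neighbours on the minus strand with 3570 bases between them. The annotation places other genes, mostly antisense, over Slc2a2 (1), Abcc8 (2), Pcsk2 (2) and Glp1r (2). Strand was not stated for the libraries, so reads of those 4 genes and of their antisense partners cannot be told apart, and their levels are uncertain to that extent.

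The genes differed in how closely they followed the insulin genes from mouse to mouse. For this reason the 250 bases before the RefSeq start of 5 members are shown (RefSeq, GRCm38.p6, strand of the gene). Of these members, 3 followed the insulin genes closely (Pcsk2, G6pc2, Ucn3), 1 weakly and with a shallow slope (Pcsk1), and 1 did not (Glp1r). Capitals mark matches on either strand to 8 short motifs: the E-box CATCTG, the A-box CTAATG, the MAF half-site TGCTGA, the forkhead motif TGTTTAC, the HNF1 half-site GTTAAT, the cyclic AMP response element TGACGTCA, the GC box GGGCGG and the TATA box TATAAA. The motifs were picked after the sequences were seen.
Pcsk2, chr2:143545883-143546132, plus strand: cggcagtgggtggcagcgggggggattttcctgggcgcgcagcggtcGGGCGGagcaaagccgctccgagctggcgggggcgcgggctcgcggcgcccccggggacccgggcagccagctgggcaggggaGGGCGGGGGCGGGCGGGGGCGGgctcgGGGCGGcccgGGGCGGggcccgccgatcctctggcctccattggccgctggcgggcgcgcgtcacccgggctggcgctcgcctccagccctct
G6pc2, chr2:69210823-69211072, plus strand: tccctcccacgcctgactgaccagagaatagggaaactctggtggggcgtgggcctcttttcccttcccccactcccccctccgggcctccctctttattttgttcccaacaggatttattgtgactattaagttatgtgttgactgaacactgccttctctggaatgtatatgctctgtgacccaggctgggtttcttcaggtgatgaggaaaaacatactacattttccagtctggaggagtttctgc
Ucn3, chr13:3945350-3945599, minus strand: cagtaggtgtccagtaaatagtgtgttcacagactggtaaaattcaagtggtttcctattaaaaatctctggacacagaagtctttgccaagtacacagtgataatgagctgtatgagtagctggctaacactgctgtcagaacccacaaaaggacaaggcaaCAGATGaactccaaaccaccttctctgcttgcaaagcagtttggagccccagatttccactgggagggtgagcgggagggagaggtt
Pcsk1, chr13:75089607-75089856, plus strand: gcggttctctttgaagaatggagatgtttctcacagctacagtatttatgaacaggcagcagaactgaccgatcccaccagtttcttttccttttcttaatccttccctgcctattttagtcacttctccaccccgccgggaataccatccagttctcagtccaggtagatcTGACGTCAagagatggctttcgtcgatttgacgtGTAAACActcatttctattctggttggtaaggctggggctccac
Glp1r, chr17:30901617-30901866, plus strand: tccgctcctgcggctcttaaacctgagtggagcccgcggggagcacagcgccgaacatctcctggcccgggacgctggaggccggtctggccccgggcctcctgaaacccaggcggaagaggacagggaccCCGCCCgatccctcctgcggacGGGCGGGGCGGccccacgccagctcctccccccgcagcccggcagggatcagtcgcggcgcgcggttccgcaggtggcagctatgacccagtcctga

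Entries existed for 6 of the 9 genes. The RefSeq start used for Pcsk1 lies 437 bases inside the gene span given above, so its window falls within that span, whereas the other 5 windows end at the start of theirs. The Pcsk1 window held a full cyclic AMP response element 78 bases before that RefSeq start, a motif present in 1.55% of all 32851 promoter windows of this length, and a forkhead motif 44 bases before it (3.17% of windows). GC boxes, present in 32.7% of windows, occurred 7 times in Pcsk2, where some overlap each other, and 3 times in Glp1r. The Ucn3 window held an E-box (14.4% of windows), and G6pc2 and Slc2a2 held no match to any of the 8 motifs. The A-box (6.36%), the MAF half-site (16.1%), the HNF1 half-site (6.43%) and the TATA box (12.4%) matched in none of the 6 windows. GC content was 82.4% in Pcsk2 and 73.2% in Glp1r, and 46.4% to 50.0% in the other 4, against a median of 52.4% over all windows. Matches are letters in a window and are given as a description.

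Glp1r had the highest level of the 9 genes in every group, and Kcnj11 the lowest. In old pancreas the group means ran from Glp1r (4.48 RPKM) through Pcsk2 (2.70), G6pc2 (2.38), Pcsk1 (1.83), Slc30a8 (1.64), Ucn3 (1.22), Slc2a2 (1.16) and Abcc8 (1.11) to Kcnj11 (0.493). These are geometric means. Among neighbours in that order, only Abcc8 and Kcnj11 had ranges that did not overlap between the 5 old mice. In young pancreas Glp1r (4.51 RPKM) stood clear of G6pc2 (2.16 RPKM), and Abcc8 (0.893) stood clear of Kcnj11 (0.458), while the remaining neighbours overlapped. In old-OSKM pancreas every pair of neighbours overlapped. For scale, Ins2 reached 141 RPKM, Ins1 43.2 and Iapp (amylin, secreted with insulin) 19.9 in old pancreas. Ins1 and Ins2 are near-identical copies, and how reads were divided between them is uncertain.

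The spread between mice of a group was wide for most members. The pooled SD within groups was 0.52 to 0.81 log2 RPKM for the 7 genes Slc2a2, G6pc2, Abcc8, Kcnj11, Pcsk2, Slc30a8 and Ucn3, and only 11.5% of all genes had an SD as large as that of Kcnj11, the least variable of them. Pcsk1 and Glp1r were narrower, with SDs of 0.25 and 0.17, values that 39.3% and 54.9% of all genes reached or exceeded. Across the 13 mice G6pc2 spanned 2.88 log2 units and Glp1r 0.72.

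Whether age altered these genes was asked by comparing old with young mice. None of the 9 was called, beside 0.886% of all genes, and their median difference was 0.25 log2 RPKM (old minus young), beside 0.00125 over all genes. Point estimates were above 0 for 7 members and just under 0 for Slc2a2 and Glp1r. Over all genes, 45.6% of estimates were under 0. A single member, Pcsk1, had a raw p under 0.05 (1 of 9, beside 5.52% of all genes). No member had groups that did not overlap (2.71% of all genes).

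Pcsk1 encodes the convertase that starts proinsulin cleavage. Its level was 0.54, 0.29, 0.96 and 0.27 log2 RPKM in young mice 1 to 4, and 0.82, 0.55, 1.28, 0.86 and 0.84 in old mice 1 to 5. Old mice lay mostly above young ones, but the groups overlapped, and young mouse 3 lay above 4 of the 5 old mice. The difference was 0.36 ± 0.16 (SE), a fold of 1.28, with a limma raw p of 0.047 and an adjusted p of 0.88, and the exact two-sided permutation p was 0.10 (n = 4 and 5). Without young mouse 3 it was 0.51 ± 0.14 (limma adjusted p = 0.41), still under the fold limit of the definition. Pcsk2, which completes the cut and also serves alpha cells, was at 0.88, 0.71, 1.62 and 0.97 in young and 0.99, 1.13, 1.99, 1.42 and 1.64 in old mice. That is a similar difference of 0.39 ± 0.43, with an interval from -0.55 to 1.32.

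The glucose-entry and channel genes gave smaller estimates with wide intervals. Slc2a2 was at 0.022, -0.28, 1.04 and 0.10 log2 RPKM in young mice and -0.13, 0.017, 0.71, -0.14 and 0.62 in old mice, and its group means differed by -0.0067 ± 0.33. The top Slc2a2 value of the series was that of young mouse 3, the library with high liver markers, and without it the difference was 0.27 ± 0.31. The part of liver RNA in that value was not tested. G6pc2 differed by 0.14 ± 0.51, Kcnj11 by 0.11 ± 0.33 and Abcc8 by 0.31 ± 0.43. Slc30a8 had the largest estimate, 0.45 ± 0.47, and Ucn3 differed by 0.25 ± 0.39. The interval for Slc30a8 ran from -0.58 to 1.48, which spans lower as well as higher levels in old mice. Without young mouse 3 the estimates were 0.71 for Slc30a8, 0.58 for Abcc8, 0.39 for G6pc2, 0.39 for Ucn3 and 0.26 for Kcnj11. All 9 members then had a higher mean in old mice, and none was called, beside 1.2% of all genes.

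Glp1r was at 2.10, 2.27, 2.26 and 2.06 log2 RPKM in young and 2.20, 1.96, 2.16, 2.24 and 2.26 in old mice. Both groups covered nearly the same narrow range. The difference was -0.0068 with an interval from -0.25 to 0.24, the tightest bound among the 9 genes. The beta hormones themselves differed by 0.32 (Ins1), 0.28 (Ins2) and 0.39 (Iapp), with adjusted p-values of 1.

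The comparison of old-OSKM with old mice asked what a cycle of OSKM followed by recovery left in the tissue. All 9 members had a lower mean in old-OSKM mice, but none was called (beside 0.753% of all genes), no member's groups were apart (1.73% of all genes), and the smallest adjusted p was 0.55. The median difference was -0.62 log2 RPKM (old-OSKM minus old), beside -0.0386 over all genes, of which 63.1% were lower. Ins1, Ins2 and Iapp were lower by similar amounts, at -0.49, -0.61 and -0.53, which became -0.079, -0.26 and -0.14 without old-OSKM mouse 1 and -1.09, -1.11 and -1.14 without old-OSKM mouse 4. Most of the 9 genes moved together from mouse to mouse, so their shared direction does not amount to 9 separate observations.

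Abcc8, the regulatory subunit and the target of sulfonylurea drugs, had the largest estimate. It was at -0.19, -0.046, 0.61, -0.019 and 0.39 log2 RPKM in old mice and at -2.19, -0.44, -0.86 and 0.31 in old-OSKM mice 1 to 4. Old-OSKM mice 1, 2 and 3 lay below every old mouse, and old-OSKM mouse 4 lay within the old range. The difference was -0.95 ± 0.43, or 0.519 of the old level, with a limma raw p of 0.048 and an adjusted p of 0.55, and the exact permutation p was 0.071. It was the only member under a raw p of 0.05 (beside 8.07% of all genes). Ucn3 followed, with 0.73, 0.61 and 0.23 in the highest old mice, -0.025 and -0.12 in the others, and -1.80, -0.081, -0.69 and 0.52 after OSKM. Its difference was -0.80 ± 0.39, and the limma adjusted p was 0.55.

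Slc30a8 (-0.72 ± 0.47), G6pc2 (-0.70 ± 0.51), Pcsk2 (-0.62 ± 0.43), Kcnj11 (-0.53 ± 0.33) and Slc2a2 (-0.34 ± 0.33) had intervals that included 0. These estimates also turned on single mice. Without old-OSKM mouse 1 they were -0.30, -0.24, -0.21, -0.27 and -0.13 in that order. Without old-OSKM mouse 4 they were -1.20, -1.20, -1.07, -0.73 and -0.59, with intervals that excluded 0 for Slc30a8, G6pc2 and Pcsk2. G6pc2, which returns glucose-6-phosphate to glucose, shows the shape of these differences: 0.43, 1.07, 1.82, 1.33 and 1.60 log2 RPKM in old mice against -0.83, 0.71, 0.26 and 2.05 in old-OSKM mice. Pcsk2 followed the same order of mice after OSKM, at -0.42, 0.96, 0.54 and 2.18. In both genes the treated group held the lowest and the highest value of the whole series, and its SD was 1.19 for G6pc2 and 1.08 for Pcsk2, against 0.54 and 0.40 in old mice.

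Pcsk1 was at 0.63, 0.79, 0.54 and 0.80 in old-OSKM mice, within or just under the range of old mice, and differed by -0.18 ± 0.16. Glp1r was at 2.06, 2.11, 2.04 and 1.55, and differed by -0.23 ± 0.11 with an interval from -0.47 to 0.021. Its lowest value was that of old-OSKM mouse 4, the mouse with the highest insulin genes, and without that mouse the difference was -0.096 ± 0.076.

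Which mouse entered altered the count and the share of all genes called. Without old-OSKM mouse 4, which had the highest beta hormones, 3 of 9 members met the definition as lower, beside 0.775% of all genes: Abcc8 at -1.31 ± 0.40, Ucn3 at -1.14 ± 0.35 and Pcsk2 at -1.07 ± 0.33, each with an adjusted p of 0.61. Ins1 also met it there. Without old-OSKM mouse 1, which had the lowest hormones and the highest lymphocyte markers, the differences shrank to -0.48 for Abcc8, -0.37 for Ucn3 and -0.21 for Pcsk2. None was called there, beside 0.402% of all genes. The median over the 9 members was -1.07 without mouse 4 and -0.27 without mouse 1, and all 9 were lower in either case. With both left out, Abcc8, Ucn3 and Pcsk2 were at -0.80, -0.67 and -0.68 from the 2 remaining treated mice. None of them was called, beside 0.342% of all genes. With shares this small, a count of 0 among 9 genes says little about the members.

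Relative to young mice, old-OSKM mice gave a median difference of -0.35 log2 RPKM, beside -0.0382 over all genes. Of the members, 8 of 9 were lower, beside 61.3% of all genes, and Pcsk1 alone was higher (0.18 ± 0.17). None was called (beside 0.625% of all genes), none had a raw p under 0.05 (5.07%) and no groups were apart (1.90%). The estimates ran from -0.63 ± 0.45 for Abcc8 to 0.18 for Pcsk1, with -0.57 for G6pc2, -0.55 for Ucn3, -0.43 for Kcnj11, -0.35 for Slc2a2, -0.27 for Slc30a8, -0.23 for Pcsk2 and -0.23 for Glp1r. Without old-OSKM mouse 1, 6 of 9 were lower, Pcsk2 (0.18) and Slc30a8 (0.16) were above 0, and Abcc8, Slc2a2, Ucn3 and G6pc2 were at -0.17, -0.13, -0.12 and -0.11. Without old-OSKM mouse 4, G6pc2 was at -1.07, Ucn3 at -0.89 and Abcc8 between them, none of them called (beside 0.766% of all genes). The sample identifiers fall into 2 runs, of 10 and 3 mice. The smaller run holds young mice 3 and 4 and old mouse 5 and no old-OSKM mouse, so run and group are partly confounded. With a term for the runs in the fit Slc30a8 was at -0.0033. Without young mouse 3 the median was -0.20. The 3 comparisons share mice, so the opposite signs of the age and OSKM estimates for a gene are not independent of each other.

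**Figure D1:**
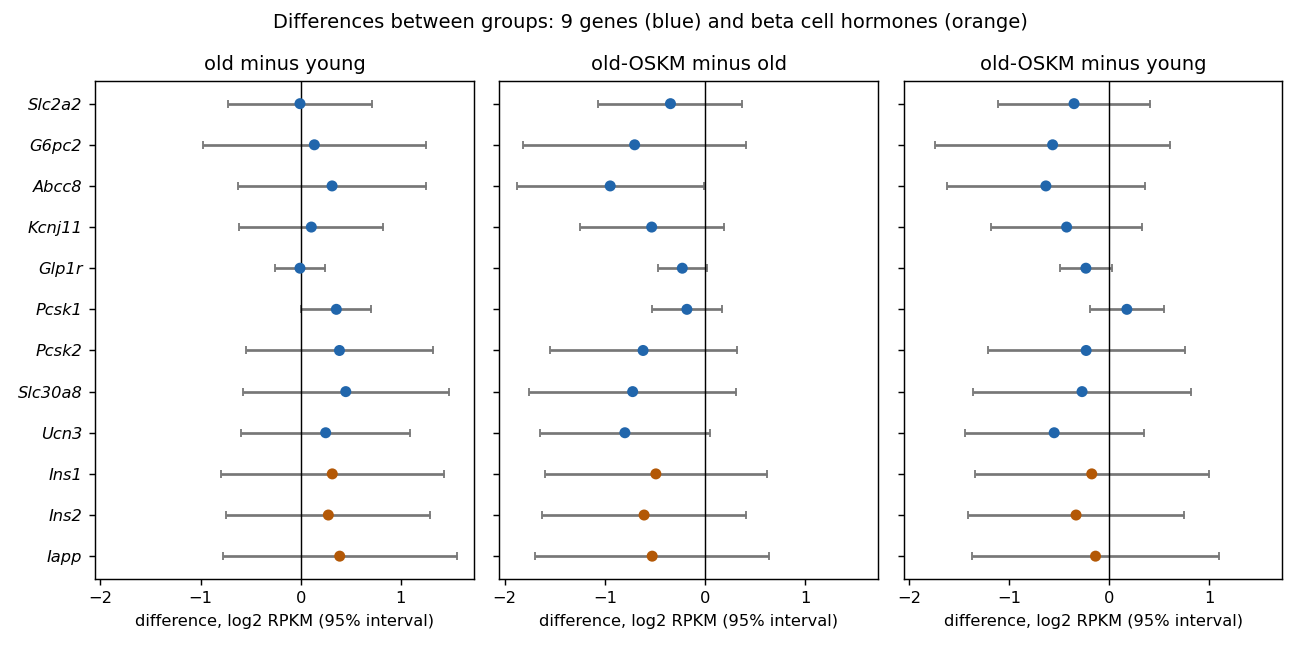
Differences of group means in log2 RPKM with 95% limma intervals for the 9 genes (blue) and Ins1, Ins2 and Iapp (orange), with a panel for each of the 3 comparisons. Only Pcsk1 (0.36, old minus young) and Abcc8 (-0.95, old-OSKM minus old) have intervals that exclude 0, and the intervals of Glp1r and Pcsk1 are the shortest.

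The 9 genes were then set against the beta hormones in the same mouse, to see how far they travelled together. The mean of Ins1, Ins2 and Iapp ran from 3.95 log2 RPKM in old-OSKM mouse 1 to 6.80 in old-OSKM mouse 4. The relation was chosen after the data had been seen, and 9 such relations were computed. Members and hormones are islet genes measured in the same libraries, so some relation was to be expected beforehand. The permutations also took no account of group. The p-values below are therefore given as descriptions. Pcsk2, Slc30a8 and G6pc2 followed the hormones most closely over the 13 mice, with Pearson's r of 0.97, 0.97 and 0.96 (permutation p = 1e-05 in each, the smallest that 100000 resamples can give, adjusted p = 3e-05) and Spearman's rho of 0.99, 0.99 and 0.96 (permutation p = 1e-05 in each). Slopes were 0.87, 0.96 and 1.01. Slc2a2 (r = 0.90, rho = 0.83), Ucn3 (r = 0.89, rho = 0.88), Abcc8 (r = 0.88, rho = 0.90) and Kcnj11 (r = 0.77, rho = 0.72) followed as well, with adjusted permutation p-values of 0.0030 or less for r and 0.0088 or less for rho.

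Pcsk1 did so weakly, with a slope of 0.20, r of 0.54 (permutation p = 0.055, adjusted 0.062) and rho of 0.67 (permutation p = 0.015, adjusted 0.017). Glp1r showed a slope of -0.078, with r of -0.31 (permutation p = 0.30) and rho of 0.093 (permutation p = 0.76). A receptor known for its action on beta cells varied by 0.72 log2 units over mice whose hormone mean ran from 3.95 to 6.80. The relations of the 7 genes did not rest on the extreme mice. With old-OSKM mice 1 and 4 left out, the 2 farthest from the median, r was 0.75 to 0.97 for the 7, 0.70 for Pcsk1 with a slope of 0.39, and 0.34 for Glp1r. Subtracting group means left r at 0.76 to 0.98 for the 7, 0.54 for Pcsk1 and -0.57 for Glp1r, and among the 10 mice of the lower run of sample identifiers r was 0.76 to 0.97, 0.57 and -0.52. For comparison, 0.318% of the 11633 genes with a mean above -1 log2 RPKM had a group-centred r with the hormones above 0.9.

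**Figure D2:**
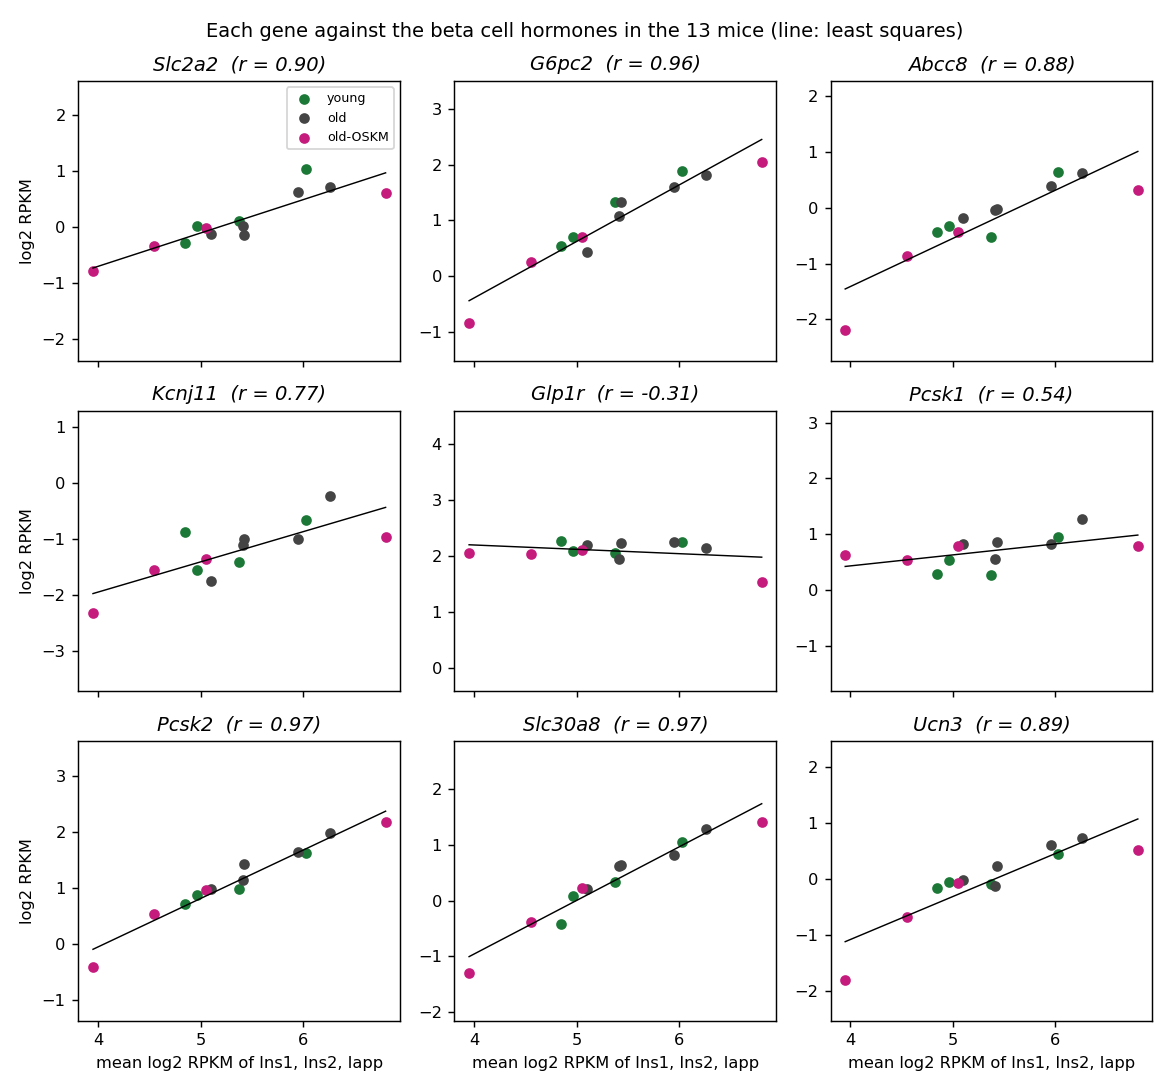
Log2 RPKM of each gene (vertical axis, the same number of log2 units in every panel) against the mean log2 RPKM of Ins1, Ins2 and Iapp in the same mouse (horizontal axis), with mice coloured by group and a least-squares line. The lines for Pcsk2, Slc30a8 and G6pc2 rise with slopes of 0.87 to 1.01, and those for Pcsk1 (0.20) and Glp1r (-0.078) are nearly flat.

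The members were tied to each other in the same way. After group means were subtracted, the 21 pairs among the 7 genes had r from 0.74 to 0.98 (median 0.91) over 13 mice. Pcsk1 had r of 0.51 to 0.72 with those 7, Glp1r had r of -0.53 to -0.19, and Pcsk1 with Glp1r gave 0.13. Without old-OSKM mice 1 and 4 the medians were 0.87 for the 7, 0.79 for Pcsk1 and 0.30 for Glp1r, whose sign thus turned. The points share mice, libraries and the amount of islet tissue, and these values are descriptions.

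**Figure D3:**
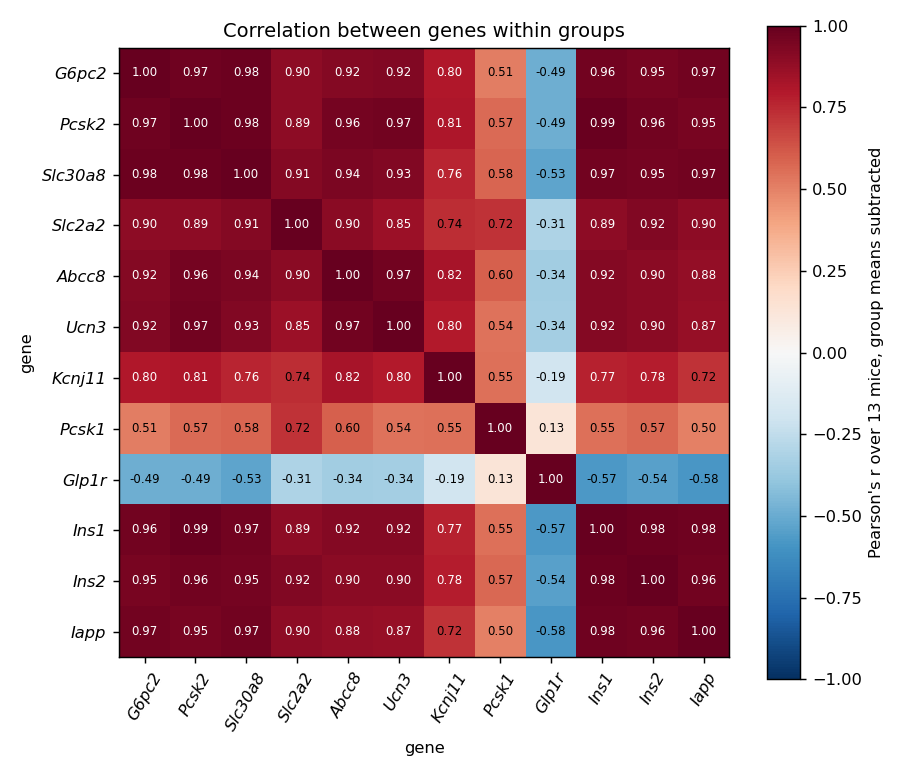
Pearson's r between the 9 genes and Ins1, Ins2 and Iapp over 13 mice after each group's mean was subtracted, with red for positive and blue for negative values. The first 7 genes and the hormones form a red block, in which pairs of the 7 genes reach 0.74 to 0.98, Pcsk1 is paler and Glp1r is blue against the 7.

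Other hormones of the islet were followed less evenly. Group-centred r with Sst (somatostatin of delta cells) was 0.72 to 0.88 for the 7 genes, and with Gcg (glucagon of alpha cells) 0.30 for Slc2a2 to 0.65 for Pcsk2. Young mouse 3, with high insulin genes, had a Gcg of 3.05 log2 RPKM, the lowest of its group, beside the highest Ppy (pancreatic polypeptide) of the series at 4.31.

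Expressed relative to the hormones, the differences lay on both sides of 0, and their median was nearer to 0 than that of the levels. Each member was divided, in its own mouse, by the geometric mean of Ins1, Ins2 and Iapp, as a description without a test. The percentages below refer to that geometric mean. The median of the 9 relative differences was -0.078 log2 units for old minus young, -0.076 for old-OSKM minus old and -0.14 for old-OSKM minus young, and no gene had groups that did not overlap on this scale. With age 3 were higher and 6 lower, and Slc2a2 and Glp1r, whose levels had barely differed, were each at -0.33. Between old-OSKM and young mice 1 was higher and 8 were lower, the same counts as for the levels. Between old-OSKM and old mice 4 were higher and 5 lower. Pcsk1 was at 4.74% of the hormone mean against 3.69% (0.36 log2 units), Glp1r at 11.3% against 9.05% (0.32) and Slc2a2 at 2.68% against 2.34% (0.20). The levels of Pcsk1, Glp1r and Slc2a2 were lower in old-OSKM mice (-0.18, -0.23 and -0.34), as was the hormone mean (5.09 against 5.63). Their slopes on the hormones were 0.20, -0.078 and 0.60, so these relative values depend on the hormone mean that divides them. Abcc8 had the most negative relative difference between old-OSKM and old mice, at 1.69% of the hormone mean against 2.24% in old mice (-0.40 log2 units), and Ucn3 was at 2.06% against 2.46%. In young mice Slc2a2 was at 2.95%, and G6pc2 ran from 5.48% in young through 4.80% in old to 4.30% in old-OSKM mice. Pcsk1 had an SD of 1.14 within old-OSKM mice on this scale, and Glp1r of 1.47, the widest of the 9 genes. Without old-OSKM mouse 1 the difference from old mice was 0.0020 for Pcsk1, 0.035 for Slc2a2 and -0.10 for Glp1r, and without old-OSKM mouse 4 it was 0.90, 0.52 and 1.02. With both left out Abcc8 was at 0.028 and Ucn3 at 0.16, so neither was lower in the 2 remaining treated mice.

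The hormone mean was also fitted as a covariate in limma. Between old-OSKM and old mice, Abcc8 was then at -0.53 ± 0.20, Ucn3 at -0.42 ± 0.18 and Glp1r at -0.29 ± 0.10, with limma adjusted p-values of 0.31 to 0.33, and none met the definition. The other 6 lay between -0.26 and -0.019. This fit was not repeated without single mice. Relative to the hormones, Glp1r had the opposite sign (0.32). Abcc8 and Ucn3 were at 0.028 and 0.16 on that scale without old-OSKM mice 1 and 4. Between old and young mice, Pcsk1 was at 0.30 ± 0.14 (limma adjusted p = 0.78), and the signs of G6pc2 and Kcnj11 turned, to -0.19 and -0.057.

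Ratios of partner genes were also taken within each mouse, and 2 are given. Abcc8 and Kcnj11 encode subunits that assemble in equal numbers. Per length, Abcc8 exceeded Kcnj11 by 1.95-fold in young, 2.25-fold in old and 1.69-fold in old-OSKM mice. The log2 ratio was 1.57, 1.06, 0.85, 0.98 and 1.40 in old mice and 0.14, 0.91, 0.69 and 1.27 in old-OSKM mice, with old-OSKM mouse 1 lowest of all. The difference was -0.41 ± 0.27 (exact permutation p = 0.15, adjusted 0.70 over 9 planned tests, of which 6 are reported), and 0.21 ± 0.24 between old and young mice (exact permutation p = 0.41).

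Pcsk1 was below Pcsk2 in all 9 control mice. The log2 ratio was -0.34, -0.42, -0.66 and -0.70 in young mice and -0.17, -0.58, -0.71, -0.56 and -0.80 in old mice. After OSKM it was 1.05, -0.17, -0.00082 and -1.38, so the treated group held both the highest and the lowest ratio. The highest was in old-OSKM mouse 1, with the lowest hormone mean (3.95), and the lowest in old-OSKM mouse 4, with the highest (6.80). Since Pcsk2 followed the hormones with a slope of 0.87 and Pcsk1 with 0.20, this ratio is not independent of how much islet RNA a sample held. The SD was 0.99 in old-OSKM mice against 0.24 in old and 0.17 in young mice. Means of -0.13 and -0.56 in old-OSKM and old mice differed by 0.44 ± 0.51 (exact permutation p = 0.43, adjusted 0.70). Without old-OSKM mouse 4 the difference was 0.86 (exact permutation p = 0.036, adjusted 0.16), and without old-OSKM mouse 1 it was 0.046 (exact permutation p = 0.93). With 4 mice against 5 the smallest exact p is 0.0079, and with 4 against 4 it is 0.029. Leaving out an old-OSKM mouse raises the first of these limits.

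**Figure D4:**
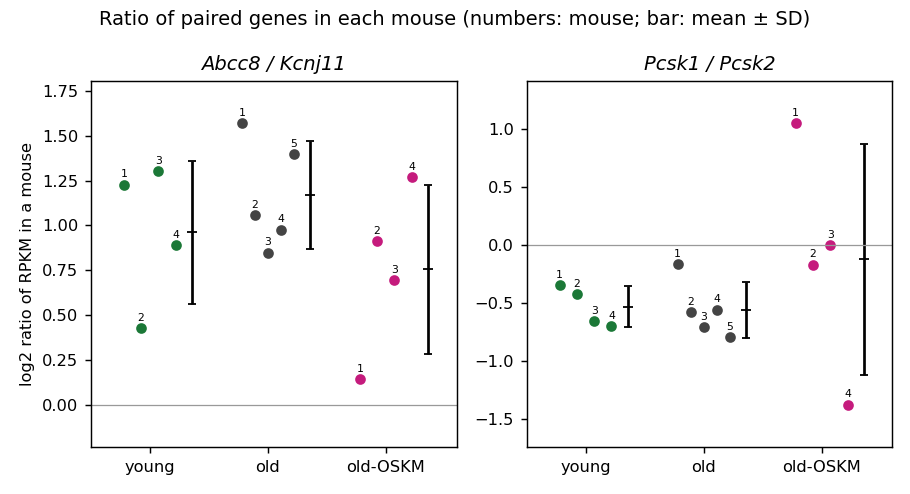
Log2 ratio of RPKM within each mouse for Abcc8 over Kcnj11 and Pcsk1 over Pcsk2, by group, with mouse numbers and mean ± SD. The ratio of Pcsk1 to Pcsk2 spans -1.38 to 1.05 in old-OSKM mice and -0.80 to -0.17 in the 9 control mice.

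Genes whose pattern over the 13 mice was most like the mean of the 9 members were sought among all genes with a mean above -1 log2 RPKM. The closest was Nkx6-1, the transcription factor that maintains beta cells (r = 0.98 after group means were subtracted). It was followed by Sez6l2 (0.96), Chic1 (0.95), Cltrn (collectrin, 0.95), Peg3os (0.95), Pcsk1n (proSAAS, an inhibitor of the Pcsk1 convertase, 0.95), Disp2 (0.95) and Chgb (chromogranin B of secretory granules, 0.94). For single members, the closest were Peg3 for Pcsk2 (0.99), Pcsk1n for G6pc2 (0.98), Syt13 for Slc30a8 (0.98), Cltrn for Abcc8 (0.96), Chic1 for Slc2a2 (0.96), Nkx6-1 for Ucn3 (0.95) and Rnf146 for Kcnj11 (0.89). Prss53 was closest to Pcsk1 (0.93) and the mitochondrial ribosomal protein gene Mrps22 to Glp1r (0.96). The best-ranked beta hormone was within the 33 closest genes for the 7 members, at rank 207 for Pcsk1, and at rank 9437 for Glp1r.

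The wider pathway was covered by 8 lists with 92 other genes. Of these, 1 was called as higher and 0 as lower with age (1.09%, beside 0.886% of all genes), 0 and 2 after OSKM (2.17%, beside 0.753%), and none between old-OSKM and young mice. Ffar1 is the receptor through which fatty acids raise insulin release. Among 16 receptors and cyclic AMP genes it was called as higher with age and as lower after OSKM. It was at -2.33 ± 0.50 log2 RPKM (SD, n = 4) in young, -1.27 ± 0.41 (n = 5) in old and -2.34 ± 0.50 (n = 4) in old-OSKM mice. The differences were 1.06 ± 0.29 (limma adjusted p = 0.47) and -1.07 ± 0.29 (limma adjusted p = 0.55). Its level was low, at 0.199 RPKM in young and 0.414 in old mice. Both differences use the same old mice, so their opposite signs are not independent. With age, the share of list genes called was near that of all genes. Adcyap1r1, the PACAP receptor, had the smallest p of the list, with differences of -0.34 ± 0.073 with age and 0.31 ± 0.073 after OSKM, both under the fold limit.

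Among 16 islet transcription factors, Insm1 (a zinc-finger factor of endocrine cells) fell after OSKM by 1.26 ± 0.38 (limma adjusted p = 0.55), from -0.79 ± 0.32 to -2.04 ± 0.68 log2 RPKM. The list's median difference was -0.19, and 14 of its 16 genes were lower, beside 63.1% of all genes. With age its median was 0.18, with none called, and Hnf4a had the smallest p (0.30 ± 0.13). Of 12 prohormone processing and granule enzymes, none was called in any comparison. Pam, which amidates peptide ends, was 0.35 ± 0.079 higher in old than in young mice (limma adjusted p = 0.22), and the granule phosphatase-like gene Ptprn2 differed by -0.20 ± 0.074 after OSKM.

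The 14 exocytosis genes had a median difference of 0.15 with age (13 higher, none called) and -0.24 after OSKM (2 higher, none called). Of all genes, 45.6% were lower with age and 63.1% after OSKM. The smallest p-values of the exocytosis list were those of Unc13a, a vesicle-priming gene (0.62 ± 0.34 with age), and the SNARE gene Stx1a (-0.43 ± 0.22 after OSKM). Of 9 glucose metabolism genes none was called, with medians of 0.030 and -0.15. Txnip had the smallest p with age (0.32 ± 0.28), and Gpd2, of the glycerol phosphate shuttle, after OSKM (-0.19 ± 0.11). Of 11 ion channel genes none was called, with medians of 0.13 and -0.063. Cacnb2, a calcium channel subunit, led with age (0.31 ± 0.16), and Kcnj8, a pore related to Kcnj11 and known from vessels, after OSKM (0.48 ± 0.24). Of 9 genes kept low in mature beta cells none was called, with medians of 0.036 and 0.053. Their summed level ran from 4.23 in young mouse 2 to 4.53 in old-OSKM mouse 1. The beta hormone sum ran from 6.02 in old-OSKM mouse 1 to 8.72 in old-OSKM mouse 4. In whole pancreas the levels of these 9 genes cannot be assigned to beta cells. The lactate transporter gene Slc16a1, on that list, differed by -0.44 ± 0.16 with age and Pdgfra by 0.44 ± 0.20 after OSKM. Of the 5 other islet hormones none was called, with medians of -0.13 and -0.46.

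Genes of other cell types moved beside the OSKM comparison. Of 6 fibroblast and stellate markers all 6 were higher in old-OSKM than in old mice and 2 were called, Col1a1 (0.88 ± 0.26) and Col1a2 (0.89 ± 0.28). Their summed level was 4.22 to 4.60 in old and 4.62 to 6.12 in old-OSKM mice. Of 5 adipocyte markers all 5 were higher and Plin1 was called (1.53 ± 0.47), with a summed level of 1.53 to 2.40 in old and 1.74 to 3.75 in old-OSKM mice. All 5 macrophage markers and all 7 B and T cell markers were higher without a call, with summed levels of 2.99 to 3.69 against 3.52 to 4.95 and of 0.37 to 1.52 against 0.69 to 2.90. All 5 endothelial markers were higher too (3.59 to 3.82 against 3.73 to 4.85), again without a call. Old-OSKM mice 2 and 3 lay within the old range in the macrophage (3.52 and 3.63) and lymphocyte sums (0.76 and 0.69). They also did so in the adipocyte (1.76 and 1.74) and endothelial sums (3.73 and 3.79). Their fibroblast and stellate sums, 4.74 and 4.62, lay above the old range. The 12 acinar markers had summed levels of 13.57 to 13.63 and 13.59 to 13.63, which the normalization holds nearly constant, and the 8 duct markers had sums of 5.23 to 5.34 and 5.26 to 5.73. The 10 liver, gut and kidney markers had no call, with sums of 2.66 to 3.13 and 2.49 to 2.92. Neuron markers were near the floor, with all 7 under a group mean of -2 log2 RPKM. With age, Col1a1 (-0.93 ± 0.26) and Col3a1 (-1.04 ± 0.30) were called as lower, and between old-OSKM and young mice the lymphocyte genes Ms4a1 (1.77 ± 0.54) and Cd3g (1.70 ± 0.55) were called as higher. The part of these cell types in the lower means of the 9 genes was not tested.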

How the data were processed

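Pancreas RNA of 13 mice (4 young, 5 old, 4 old-OSKM) was rRNA-depleted and sequenced as 50-base paired reads. Per the labels and the study's methods, the authors aligned reads to mm10 (STAR 2.3.0e), estimated isoform expression with Casper, summed it per Entrez gene and deposited quantile-normalized log2 RPKM. Ranked values agreed between mice to within 0.0116. The correction for total reads that the study describes could not be repeated, as no read totals by library were used here. All columns of the table were mapped to a mouse.

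Groups were compared on all 23366 genes with limma 3.58.1 (R 4.3.3), 3 groups in a single fit without covariates. Calls needed a fold change above 1.5 and a raw p under 0.01. For ratios within a mouse, exact permutation tests (two-sided) were used, adjusted by Benjamini-Hochberg over 9 planned tests, of which 3 are not reported here. Correlations used 100000 permutations (scipy 1.17.1). The fit was tested on simulated data. The 9 genes and all lists were chosen with earlier results of these data known. The text names the 9 members, the beta hormones, list genes that were called or had the smallest p with age or after OSKM, the 8 genes most like the members' mean and the closest gene of each member. Alb, Gcg, Sst and Ppy were named after their values were seen. Whether mice shared a litter, and whether libraries were made together, is not given in the sources used here. Sample identifiers fall into 2 runs (10 and 3 mice). Alternatives were other pseudocounts (0.1 and 1), a filter at a mean of -1, repeated normalization, median centring, 2-group fits, trend and robust settings, the identifier run or the hormones as a covariate, permutation tests and leaving out mice.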

Additional observations from a re-analysis of the deposited data

Results flagged for a closer look

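In 33 tests (9 genes and 2 ratios in 3 groups), 3 values from 2 mice lay farther from their group than Dixon's test allows at 95%. Chance alone flags about 1 in 20 such groups. Abcc8 in young mouse 3 was at 0.63 log2 RPKM, against -0.33 in the next highest young mouse. Ucn3 in the same mouse was at 0.45, against -0.060 in the next. That mouse also had Alb at 5.36 log2 RPKM and the highest Ppy. Glp1r in old-OSKM mouse 4 was at 1.55, against 2.04 in the next lowest old-OSKM mouse, in the library with the highest beta hormones and the highest endothelial, fibroblast and adipocyte markers.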

How the results depend on the processing

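Of the 9 genes, 0 were called in each comparison under other pseudocounts, repeated normalization, median centring, 2-group fits, trend and robust settings, both covariates and exact permutation tests at p under 0.05 with no fold limit. Pseudocounts lowered the share of all genes called too, so that with a pseudocount of 1 it was 0.0685% with age, 0.00856% after OSKM and 0.0342% between treated and young mice, and a count of 0 there says little about the members. The filter on low levels, which drops Kcnj11, also gave 0. Leaving out single mice gave 0 to 3 called between old-OSKM and old mice, the 3 being Abcc8, Ucn3 and Pcsk2 without old-OSKM mouse 4. Leaving out both old-OSKM mice 1 and 4, a choice made after seeing the data, gave 0. The share of all genes called was 0.402% to 1.45% over the single omissions and 0.342% without both. With the identifier run as a covariate the age difference was 0.18 for Slc2a2 and 0.0058 for Glp1r. With the hormones as a covariate it was -0.19 for G6pc2, -0.057 for Kcnj11 and 0.034 for Glp1r. Leaving out single mice, the age difference ran from -0.17 to 0.27 for Slc2a2, from -0.053 to 0.39 for G6pc2, from -0.090 to 0.29 for Kcnj11 and from -0.044 to 0.045 for Glp1r. Old-OSKM mice differed from young mice by -0.68 to 0.18 for Pcsk2 and by -0.74 to 0.16 for Slc30a8, positive only without old-OSKM mouse 1. The log2 ratio of Pcsk1 to Pcsk2 ran from -0.13 to 0.031 with age, from 0.046 to 0.86 between old-OSKM and old mice and from 0.015 to 0.82 between old-OSKM and young mice, highest without old-OSKM mouse 4 (exact permutation p = 0.036 and 0.029, adjusted 0.16). The p of 0.029, for old-OSKM against young mice without old-OSKM mouse 4, is the smallest that test can give. Relative to Gcg and Sst, the median of the 9 age differences was 0.17. Of the 8 genes most like the members' mean, 5 were among the 8 without the filter, and 5 with group means kept. The cause of these changes was not tested. No paired analysis was possible because the labels give the mice no shared replicate numbers. Read totals by library were not used here, so what depth limits cannot be given.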
